A study of Caenorhabditis elegans with 2 samples.

Results

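The 9 genes described here, *ire-1*, *pek-1*, *atf-6*, *xbp-1*, *hsp-3*, *hsp-4*, *enpl-1*, *crt-1* and *pdi-2*, encode the sensors and several main effectors of the unfolded protein response, which guards protein folding in the endoplasmic reticulum (ER), in *Caenorhabditis elegans*. They were chosen by name, as 9 of 19973 protein-coding genes. Each was searched over its gene body and 2000 bp upstream for listed regions of signal from the transcription factor SKN-1. Binding was measured by chromatin immunoprecipitation and sequencing (ChIP-seq) of an eGFP-tagged SKN-1 in whole L4 larvae of mixed sex. The 2 biological replicates form 1 group. They are of strain OP342, which carries the mutation *unc-119(ed3)* III and the integrated transgene wgIs342, so the tagged copy comes in addition to the resident gene. Whole larvae mix all tissues, and no untagged worms are among the samples.

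The unfolded protein response matches the folding capacity of the ER to its load. IRE-1 splices the mRNA of the transcription factor XBP-1, PEK-1 slows translation by phosphorylating eIF2alpha, and ATF-6 is a transcription factor held in the ER membrane until stress releases it. Their known outputs include the Hsp70 chaperone BiP, which worms encode as HSP-3 and HSP-4, and other folding factors. SKN-1, the worm relative of the mammalian Nrf proteins, is best known for oxidative stress and has also been linked genetically to ER stress in worms.

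In the pooled list of both replicates, strong SKN-1 regions at these genes lay at *xbp-1*, *hsp-3* and *pdi-2*. That of *pdi-2* was weak in replicate 2, and *ire-1* and *crt-1* each had a strong region in 1 replicate alone. The sensor genes had weak or unevenly replicated regions. A region is an interval of the deposited lists, its summit is the point the authors' caller gives, and its rank is its place by the caller's signal value, with 1 the strongest. The pooled list of both replicates held 29768 regions, peaks and background together, and the list of each replicate held 30000. A thresholded list held 97 peaks, which are the 97 strongest pooled regions. All 9 genes (100%) had a pooled region of some strength in their window, against 73.1% of all protein-coding genes. Of the 9, 3 (33.3%) had a region among the 1000 strongest, against 5.31%. A thresholded peak lay at 1 of the 9 (11.1%), *xbp-1*, against 0.591%. These shares are set side by side without a test, because the genes were picked with earlier results known and the samples form a single group. Signal values come with no read counts, so the depth is unknown and no error can be attached to a single value.

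The genes with strong regions differed in part between the replicates. In replicate 1, 4 of 9 genes had a region among its 1000 strongest, namely *xbp-1*, *hsp-3*, *crt-1* and *pdi-2*, against 5.28% of protein-coding genes. In replicate 2 there were 3, namely *ire-1*, *xbp-1* and *hsp-3*, against 5.33%. Regions of any strength lay at 8 of 9 genes in replicate 1, where *atf-6* had none, and at 9 of 9 in replicate 2. The background shares were 73.6% and 73.9%. Hence *xbp-1* and *hsp-3* alone among the 9 genes stood among the 1000 strongest in all 3 lists.

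**Figure D1:**
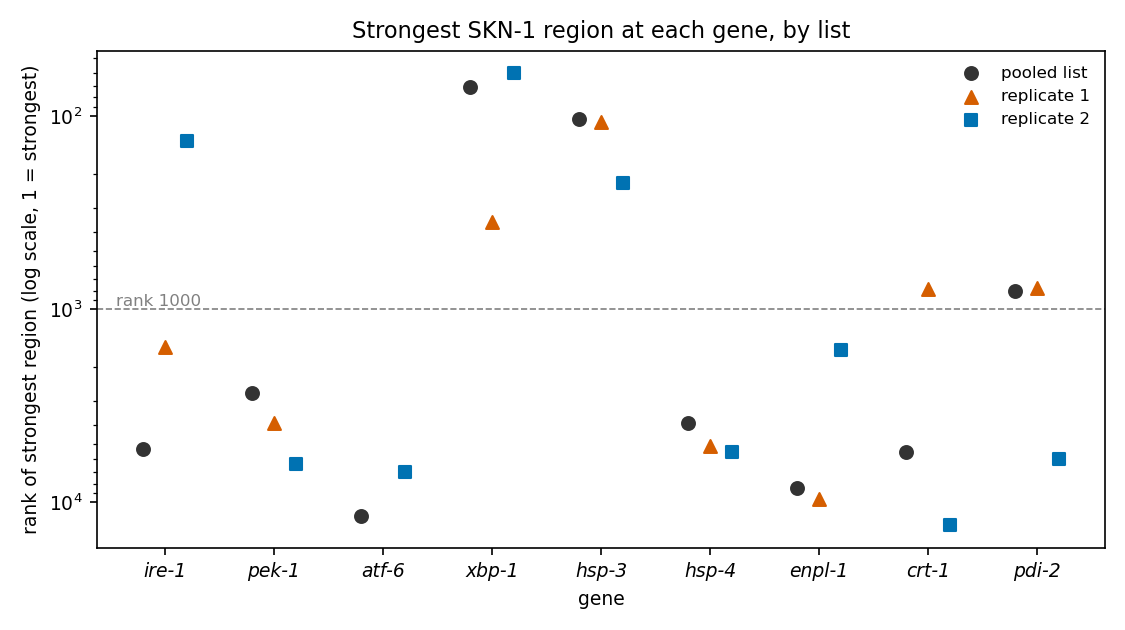
Rank of the strongest region at each of the 9 genes (logarithmic axis, strongest at the top) in the pooled list and in the list of each replicate; the dashed line marks rank 1000. The points of *hsp-3* lie close together between 104 and 223, and those of *ire-1*, *crt-1* and *pdi-2* are spread over the axis; *atf-6* has no point for replicate 1.

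The strongest region of the 9 genes lay inside *xbp-1* (WBGene00006959, chromosome III, 4193809 to 4195358, plus strand, ce11), which encodes the bZIP factor made from the mRNA that IRE-1 splices. It ran from 4194139 to 4194528 and ranked 71 in the pooled list with a signal of 31.7, where the lowest of the 97 thresholded peaks had 29.0. Its summit was 525 bp downstream of the annotated start, in coding sequence of exon 2. That is just outside the promoter window used below (1000 bp upstream to 500 bp downstream), into which the region extends. The middle 201 bases of the region are shown because they surround the summit of the only thresholded peak at these genes. They cover positions 425 to 625 on the coding strand, where the first base of the gene is position 0 (chrIII:4194234-4194434, WBcel235 sequence). Capitals here and in the sequences that follow mark sets of letters on either strand. One is the SKN-1 site, which is TATCAT or TGTCAT preceded by 2 bases that are each A or T. The others are GACGTG, its longer form TGACGTGG, and CCACG, which occur in the elements that mammalian XBP1 and ATF6 recognise.

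xbp-1: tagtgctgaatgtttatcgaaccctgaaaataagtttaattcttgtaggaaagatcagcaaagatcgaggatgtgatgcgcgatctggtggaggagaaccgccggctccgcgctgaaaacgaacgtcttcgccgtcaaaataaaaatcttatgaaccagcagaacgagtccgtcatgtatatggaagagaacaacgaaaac

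None of these letters was found in that stretch, and the rest of the region was not searched. Replicate 2 placed its strongest *xbp-1* region at nearly the same point, 547 bp downstream, with rank 60 and a signal of 17.5. Replicate 1 placed its own 224 bp downstream of the start, with rank 352 and a signal of 12.2, and had a second region 552 bp downstream at rank 3368 (signal 7.81). The summits of the replicates' strongest regions were thus apart by more than the 240 bp width of a replicate 1 region. A second pooled region of *xbp-1* was centred 49 bp upstream of the start at rank 2952 (signal 14.6), and the replicates' regions there ranked 9036 (80 bp upstream) and 13707 (11 bp downstream). The strong signal at this gene was in the transcribed part, and the pooled region at the start was moderate. The replicate regions centred at the start were weak. However, the replicate 1 region of rank 352, centred 224 bp downstream, also overlapped the pooled region at the start.

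**Figure D2:**
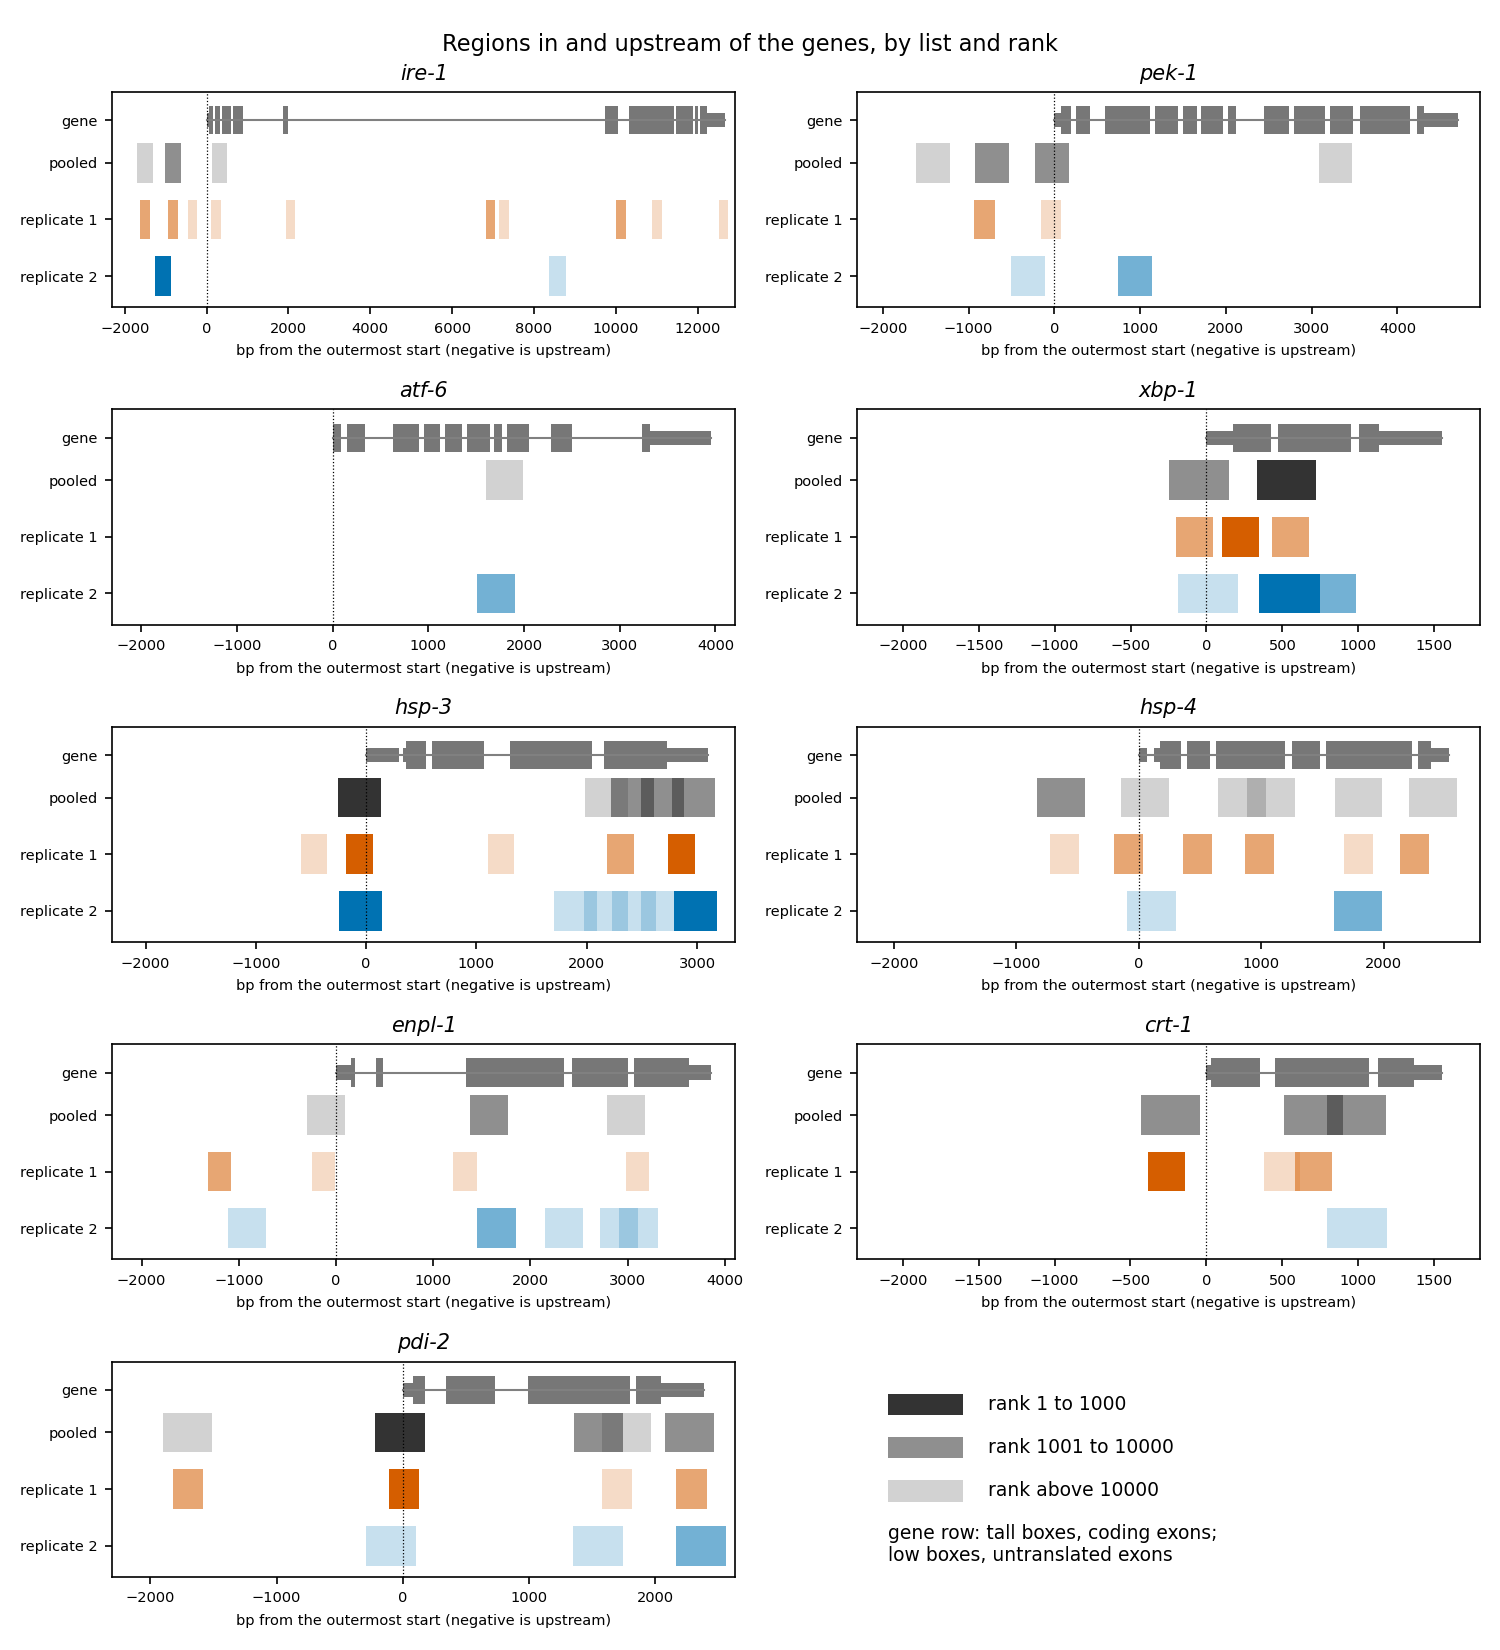
Regions of the pooled list and of each replicate's list drawn to scale on each of the 9 genes, against distance in bp from the outermost annotated start; darker boxes have stronger ranks, and grey boxes in the top row are exons. The darkest boxes lie inside *xbp-1*, at both ends of *hsp-3*, at the start of *pdi-2*, upstream of *crt-1* in replicate 1 and upstream of *ire-1* in replicate 2.

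The 2 BiP genes differed in rank. At *hsp-3* (WBGene00002007, chromosome X, 6089028 to 6092124, minus strand) the region from 6091992 to 6092381 had its summit 63 bp upstream of the outermost start. It ranked 104 in the pool with a signal of 28.8, just under the 29.0 of the weakest thresholded peak. The replicates gave it ranks of 107 (signal 16.8, 61 bp upstream) and 223 (signal 14.4, 52 bp upstream). Both replicates thus had this region near the same point and among their 1000 strongest. The summit also fell in the window of the divergent neighbour *C15H9.5*. At *hsp-4* (WBGene00002008, chromosome II, 7350112 to 7352645, minus strand), the gene whose reporter is widely used to read out this response, the strongest pooled region was 638 bp upstream at rank 3866 (signal 13.8). Replicate 1 had a region there at rank 13242 and replicate 2 had none overlapping it. The strongest *hsp-4* region of each replicate was inside the gene instead, 987 bp downstream at rank 5082 in replicate 1 (signal 7.11) and 1791 bp downstream at rank 5516 in replicate 2 (signal 7.91). In addition, 9.01% of the 36-base words of the pooled region 638 bp upstream occur elsewhere in the genome. The other 31 pooled regions at the 9 genes had 0 repeated words. At the start of *hsp-4* the pooled region 48 bp downstream ranked 19415 (signal 8.59), with ranks of 7054 and 15655 for the replicates' overlapping regions.

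The upstream part of the *hsp-4* start region is printed as a BiP promoter with weak signal, and that of *crt-1* is printed because replicate 1 placed a strong region on it. Each is given on the gene's own strand, which is minus for both genes. The *hsp-4* stretch is chrII:7352646-7352791 and covers -146 to -1. The *crt-1* stretch is the 201 bases around its upstream summit, chrV:6100680-6100880, and covers -338 to -138.

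hsp-4: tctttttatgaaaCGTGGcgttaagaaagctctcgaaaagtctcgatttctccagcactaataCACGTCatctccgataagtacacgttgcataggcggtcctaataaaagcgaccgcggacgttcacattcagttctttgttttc
crt-1: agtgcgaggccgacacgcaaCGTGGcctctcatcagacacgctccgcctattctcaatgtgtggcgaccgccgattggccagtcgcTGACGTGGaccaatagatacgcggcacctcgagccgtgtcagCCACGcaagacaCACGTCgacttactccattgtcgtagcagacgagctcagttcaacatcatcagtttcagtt

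On the opposite strand GACGTG lay at -83 upstream of *hsp-4*, where it reads CACGTC. The *crt-1* stretch held it on both strands, at -251 and -198, and the match at -251 was part of TGACGTGG, the full mammalian element. In the 300 bp upstream of the start, 4 of the 9 genes had GACGTG on either strand, among them *hsp-4* and *crt-1*, against 6.28% of all protein-coding genes. TGACGTGG was present upstream of 1 of the 9, *crt-1*, against 0.776%. The SKN-1 site was in the 300 bp upstream of 0 of the 9 genes, against 16.4% of all protein-coding genes.

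The calreticulin gene *crt-1* (WBGene00000802, chromosome V, 6098992 to 6100542, minus strand) had a strong upstream region in 1 replicate. Replicate 1 had a region 264 bp upstream at rank 787 (signal 10.5). Replicate 2 had none overlapping the pooled region there, which was centred 238 bp upstream and ranked 5777 (signal 12.6). The *crt-1* summit also lay on *Y38A10A.8*, annotated as a non-coding RNA. In the second exon of *crt-1*, 705 bp downstream, a pooled region ranked 5491 (signal 12.7), with 2631 and 13155 for the strongest overlapping regions of the replicates. At *enpl-1* (WBGene00011480, chromosome IV, 11119298 to 11123155, plus strand), which encodes the ER Hsp90 endoplasmin, the strongest pooled region was likewise in coding sequence, 1577 bp downstream at rank 8437 (signal 11.4). Replicate 2 ranked its region there 1625 (signal 10.3, 1652 bp downstream) and replicate 1 ranked an overlapping one 21240 (signal 4.53). The promoter region of *enpl-1*, 102 bp upstream, ranked 22277 in the pool, 14937 in replicate 1 and had no overlapping region in replicate 2. Its pooled summit and the one 1577 bp downstream also fell in the window of the neighbour *imp-2*.

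The protein disulfide isomerase gene *pdi-2* (WBGene00003963, chromosome X, 4524155 to 4526536, plus strand) had a promoter region that 1 replicate carried. The pooled region from 4523937 to 4524326 was centred 23 bp upstream of the start and ranked 800 (signal 18.9). Replicate 1 gave it rank 780 (signal 10.5), and replicate 2 gave it rank 21346 (signal 4.90). The non-coding RNA gene *C07A12.19* spans the summit, which also fell in the window of the neighbour *C07A12.7*. The part of this region before the start is shown because its letters include the beginning of a rare match (plus strand, chrX:4523937-4524154, positions -218 to -1).

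pdi-2: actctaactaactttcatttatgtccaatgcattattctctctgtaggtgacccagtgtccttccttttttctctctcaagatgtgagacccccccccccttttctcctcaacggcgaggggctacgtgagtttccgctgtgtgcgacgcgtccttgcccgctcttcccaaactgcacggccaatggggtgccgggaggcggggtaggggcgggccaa

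The mammalian ER stress response element is CCAAT and CCACG separated by 9 bases. It was present at 1 of the 32 pooled regions of the 9 genes, within 100 bp of the summit, at positions -4 to 14 of *pdi-2*, so that only its first 4 bases end the stretch shown. Of all 29768 pooled regions, 8 (0.0269%) held these letters in the same window. In the 300 bp upstream of the start it was present in 0 of the 9 genes, against 0.02% of all protein-coding genes. A match of letters is a description of the sequence and says nothing on whether a factor bound there.

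The kinase and endoribonuclease gene *ire-1* (WBGene00002147, chromosome II, 8112243 to 8124910, minus strand) had its signal in the upstream kilobases, spread differently in each list. Replicate 2 had a region 1068 bp upstream at rank 134 (signal 15.4), its second strongest among the 9 genes. Replicate 1 had regions 1500 bp upstream at rank 1575 (signal 9.12) and 819 bp upstream at rank 2240 (signal 8.50). The pooled list gave signals of 12.9 at 815 bp upstream (rank 5311) and 7.87 at 1511 bp upstream (rank 23613), so the strong region of replicate 2 was not reflected in the pooled rank. The 201 bases around the pooled summit 815 bp upstream are shown since the replicates' regions meet there (minus strand, chrII:8125625-8125825, positions -915 to -715).

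ire-1: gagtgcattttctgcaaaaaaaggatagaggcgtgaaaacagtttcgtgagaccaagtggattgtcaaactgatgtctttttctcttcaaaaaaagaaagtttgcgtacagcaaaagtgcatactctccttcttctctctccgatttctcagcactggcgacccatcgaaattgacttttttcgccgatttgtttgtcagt

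None of the marked letters occurred in it, and the non-coding RNA gene *C41C4.14* spans the summit. The gene *unc-105* lies inside *ire-1* on the opposite strand, and the 7 weaker regions of replicate 1 within the gene ranked 8197 to 22197.

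Regions at the other sensor genes lay outside the 1000 strongest in all 3 lists. At *pek-1* (WBGene00003970, chromosome X, 11410176 to 11414887, minus strand), which encodes the eIF2alpha kinase, the strongest pooled region was 726 bp upstream at rank 2715 (signal 14.9), ahead of *ire-1* in that list. Replicate 1 had one 814 bp upstream at rank 3908 (signal 7.58), while the strongest of replicate 2 was 942 bp downstream at rank 6367 (signal 7.61). The pooled region centred 26 bp upstream of *pek-1* ranked 6193 (signal 12.4). At *atf-6* (WBGene00000222, chromosome X, 12480948 to 12484904, plus strand), which encodes the membrane-held factor, a single pooled region lay in an intron 1796 bp downstream at rank 11747 (signal 10.4). Replicate 2 ranked it 6981 and replicate 1 had no region in the *atf-6* window. No list had a region upstream of *atf-6* within 2000 bp.

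Several members had regions along their coding sequence and at their 3′ ends as well as upstream. The 9 windows held 32 pooled regions in 54.3 kb, or 0.589 per kb, against 0.318 per kb over the windows of all protein-coding genes and 0.297 over the nuclear genome. By summit, 12 lay upstream of the start, 15 in coding exons, 3 in 3′ UTRs, 1 in a 5′ UTR and 1 in an intron. The coding share was 46.9%, against 30.8% of all pooled regions. The 32 were selected by lying in a gene or up to 2000 bp upstream, while the whole list was not. The part of this selection in the difference was not tested. The 3′ end of *hsp-3* carried a run of 4 regions. The strongest was 2965 bp downstream in the 3′ UTR, at rank 1201 in the pool (signal 17.5), 593 in replicate 1 and 270 in replicate 2. Its rank in each replicate was therefore within the 1000 strongest, as at the *hsp-3* promoter, although the nearest start was that of *C45B2.8*, 1183 bp away. At *pdi-2* a 3′ UTR region 2269 bp downstream ranked 2678 in the pool (signal 14.9), 2981 in replicate 1 and 5947 in replicate 2. That region was nearer in rank between the replicates than the *pdi-2* promoter region.

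Across the 9 genes the promoter was not the only place of strong signal. The strongest pooled region was upstream at *ire-1*, *pek-1*, *hsp-3*, *hsp-4* and *pdi-2*, and inside the gene at *atf-6*, *xbp-1*, *enpl-1* and *crt-1*. By its strongest region, *xbp-1* was in place 87 and *hsp-3* in place 127 of 19973 protein-coding genes, or the top 0.436% and 0.636%. For *pdi-2* the value was 4.39%, and for the other 6 it ran from 13.1% (*pek-1*) to 42.5% (*atf-6*). The median strongest rank was 3866 over the 9 genes and 9539 over the 14609 protein-coding genes with a pooled region. Windows of the 9 genes had a median length of 5097 bp, against 4027 bp for protein-coding genes. Longer windows hold more regions, and the part of length in these ranks was not tested.

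The full SKN-1 site was at 2 of the 32 regions (6.25%) within 100 bp of the summit, against 9.35% of all pooled regions. Both sites were inside genes, at the *hsp-3* region of rank 2505 and at the *pdi-2* region of rank 11720. The shorter GTCAT was at 11 of the 32 (34.4%), against 28.0%, and GACGTG at 4 of the 32 (12.5%), against 5.3%. At *hsp-4* the counted GACGTG lay at positions 27 to 32, in the region of rank 19415, and not at -83. GC content over the same windows had a median of 44.8% at the 9 genes (26.4 to 62.7%), 42.8% in the 1000 strongest pooled regions and 37.8% in the whole list. GACGTG and CCACG are rich in G and C, and the part of base composition in their shares was not tested.

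The share of pooled regions with a counterpart in both replicates was larger at these genes than over the whole list, a difference that was not tested. The regions compared were not matched in signal. The median strongest rank was 3866 over the 9 genes and 9539 over protein-coding genes with a pooled region. Of the 32, 20 (62.5%) overlapped a region of both replicates by at least 1 bp, against 28.9% of all pooled regions. A further 9 overlapped replicate 1 alone, 1 overlapped replicate 2 alone, and 2 overlapped neither. Where pooled regions lie close together, as at *hsp-3* and *xbp-1*, 1 replicate region can count for more than 1 of them. Where overlap of at least 50% of the shorter region was asked for, 13 of the 32 were matched in both, against 20.5%.

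**Figure D3:**
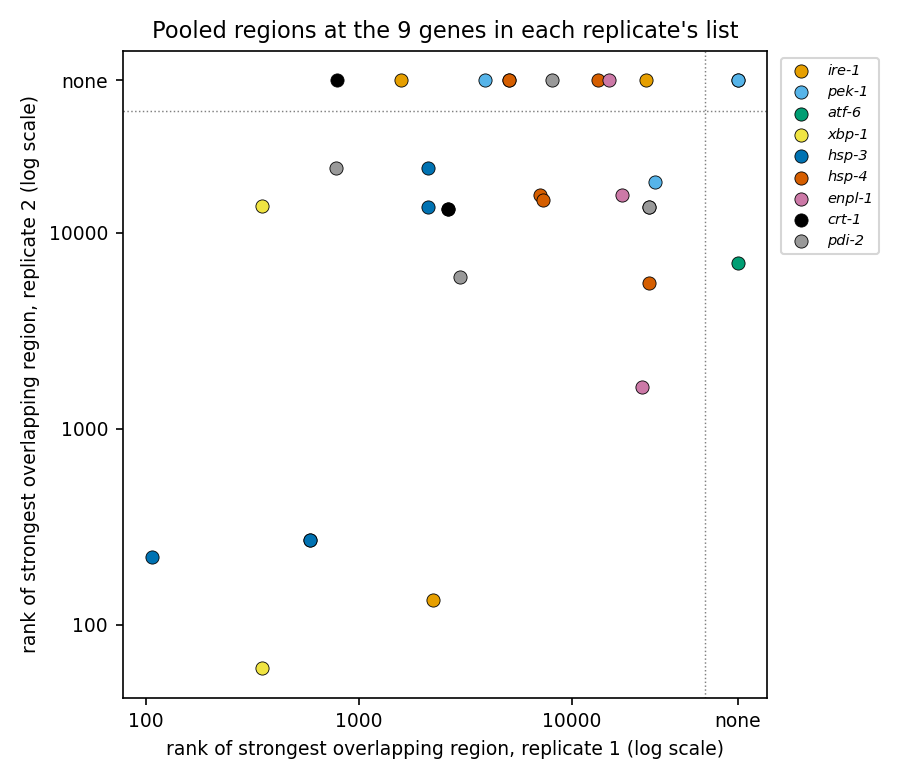
Rank of the strongest overlapping region in replicate 1 and in replicate 2 for each of the 32 pooled regions at the 9 genes, on logarithmic axes; "none" marks no overlapping region, and points can coincide. The *hsp-3* and *xbp-1* points at the lower left have strong ranks in both, while *crt-1* at 787 and *pdi-2* at 780 in replicate 1 have no region or a weak one in replicate 2. The *xbp-1* rank of 352 in replicate 1 comes from a region centred 224 bp downstream of the start. For the pooled *xbp-1* region of rank 71 it becomes 3368 when overlap of at least 50% of the shorter region is asked for.

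Other genes of ER protein handling had strong regions at a lower share than the 9, and some of them outranked *xbp-1*. Of 53 listed symbols 50 were matched, covering translocation and glycosylation, ER-associated degradation, other chaperones, oxidative folding, signalling and the *abu* family. A pooled region of some strength lay at 45 of the 50 (90%), and 7 (14%) had one among the 1000 strongest, against the 73.1% and 5.31% given above. Thresholded peaks lay at 2 of the 50 (4%), against 0.591% of all protein-coding genes. The first was *sec-61.G*, which encodes the small subunit of the translocon, with a summit 186 bp upstream at rank 25 (signal 41.9) and ranks of 48 and 43 in the replicates. The next was *cdc-48.1*, which encodes the ATPase that draws proteins out of the ER for degradation, 152 bp upstream at rank 26 (signal 41.3), with 22 and 258.

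A translocon-associated protein gene, *trap-1*, followed at rank 212, 198 bp upstream, with 1092 and 585 in the replicates. The signal peptidase gene *spcs-3* ranked 304, though its summit, 1037 bp upstream, was nearer to the start of *K12H4.5*. The Cdc42-related GTPase gene *crp-1* ranked 444 (1548 bp upstream) and was uneven, with 11260 in replicate 1 and 224 in replicate 2. The glucosyltransferase gene *uggt-1*, which serves the calnexin and calreticulin cycle, ranked 722 at 229 bp upstream, with 1886 and 744. For the disulfide isomerase gene *pdi-3*, ranked 955, the summit was in the 3′ UTR and nearer to *chd-1*. By group, strong regions lay at 3 of 15 translocation and glycosylation genes, 1 of 14 degradation genes, 1 of 7 chaperones, 1 of 4 oxidative folding genes, 1 of 4 signalling genes and 0 of 6 *abu* genes. Over all protein-coding genes the share was 5.31%, and the groups are small.

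**Figure D4:**
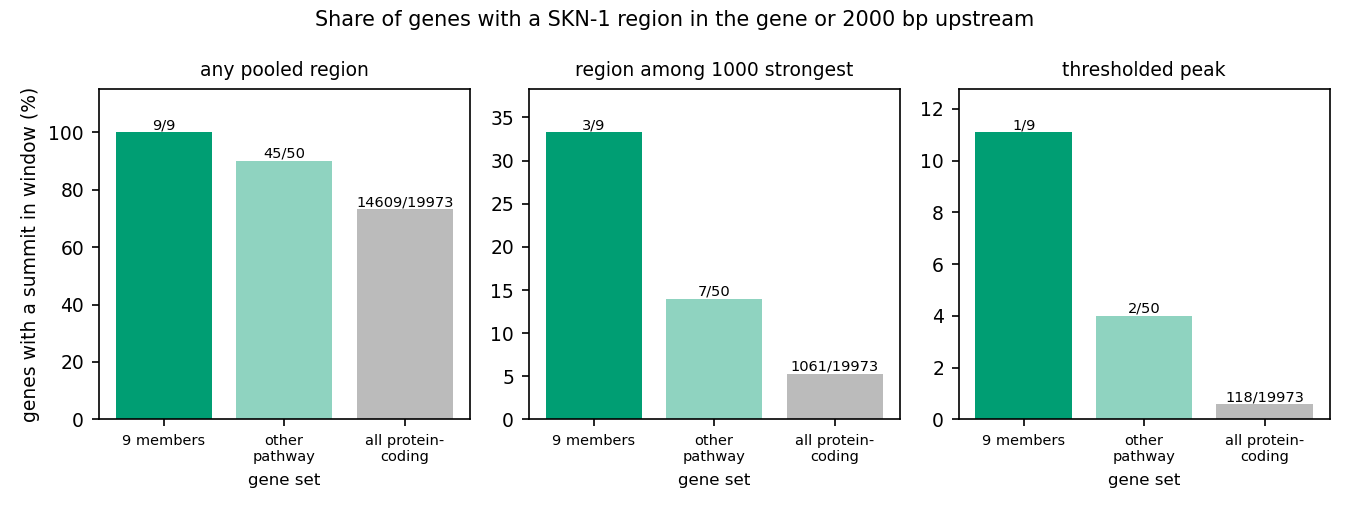
Percentage of the 9 genes, of 50 other pathway genes and of all protein-coding genes with a summit in the gene or 2000 bp upstream, for any pooled region, for the 1000 strongest and for thresholded peaks; counts stand above the bars. The vertical axes differ in range, and the shares of the 9 genes are 100%, 33.3% and 11.1%.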

How the data were processed

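Regions of SKN-1 signal were taken from 4 deposited ce11 lists of 2 biological replicates: 1 per replicate, 1 pooled and 1 thresholded on the irreproducible discovery rate. The pooled list holds background as well as peaks, so a region there is not by itself a binding site. Per the labels' file listing, the authors made the 4 lists from alignments and a control alignment. No label or header names the caller or the aligner, and the control was not analysed here. Each region has the authors' signal value (column 7), of unstated scale, which ranks regions within 1 list. Regions were 240 bp wide in replicate 1, 396 bp wide in replicate 2 and, with few exceptions, 390 bp wide in the pool. The lists hold no counts, so depth is unknown.

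Genes came from Ensembl release 115 and bases from the RefSeq copy of WBcel235, the assembly also named ce11. A gene had a region when the summit lay in its body or up to 2000 bp upstream of its outermost start. Letters were searched on both strands within 100 bp of summits and 300 bp upstream of starts. Python 3.11.15 and pandas 2.3.3 were used, and the window search was tested on simulated data. All 9 genes are named, with the other pathway genes among the 1000 strongest regions. The genes and lists were chosen with earlier results of these data known. The ce10 lists were not used here. No test was made, as there is 1 group.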

Additional observations from a re-analysis of the deposited data

How the results depend on the processing

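The counts of the 9 genes changed little with the window. With 1000 or 5000 bp upstream, 3 of 9 had a region among the 1000 strongest, against 4.34% and 7.8% of protein-coding genes. Any overlap in place of the summit also gave 3, against 5.75%. Summits nearest to the gene's own start gave 3, against 3.42%. With the promoter alone (1000 bp upstream to 500 bp downstream) 2 had one, against 2.48%. The summit of the *xbp-1* peak lies just outside that window. Limits of 500 and 5000 regions gave 2 and 5 of the 9, against 2.79% and 22.5%. Without replicate 1 or replicate 2 the count ran from 3 to 4, and that of genes with a region of any strength from 8 to 9. The thresholded count fell to 0 among the 48 strongest peaks, against 0.325% of protein-coding genes. For the other pathway genes, the 7 of 50 became 4 in the promoter window, against 2.48% of protein-coding genes. Without replicate 1 the count was 5, against 5.33%, and without replicate 2 it was 4, against 5.28%. It was 5 with 500 regions and 24 with 5000, against 2.79% and 22.5%. Requiring 50% overlap left 13 of 32 regions matched in both replicates. The gene *atf-6* had no region, and so no rank, with the promoter alone or without replicate 2. Of the 61 ranks of single genes that exist under the alternatives, 48 stayed within 1.5 times, 39 of them identical. The remaining 13 moved further, 10 of them where a single replicate's list was used. All other settings read the same pooled list again, so the 48 say little on agreement between the replicates. No paired analysis was possible because both samples belong to 1 group. With no read counts, a missing region in a replicate cannot be told apart from shallow sequencing.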
